A study of Mus musculus with 2 samples.

Results

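Mature B cells without counts of the precursor genes Vpreb3 and Rag1 made up 979 of 28382 kept cells in the bone marrow of streptozotocin-treated and control mice, 370 in the T1D library and 609 in the control library. A kept cell was a barcode with at least 200 genes and at most 20% of its counts from mitochondrially encoded genes. A member had a count for at least 2 of 5 genes, Ms4a1 (CD20), Ighd (the IgD heavy chain), Fcmr (the IgM Fc receptor), Fcer2a (CD23) and Cd22. It also had no count of Vpreb3 and Rag1, which mark B cell precursors, none of Siglech, which marks plasmacytoid dendritic cells, and fewer than 5 counts of Jchain, which marks plasma cells. The T1D library came from C57/BL6 mice treated with streptozotocin, which destroys pancreatic beta cells, and with high blood sugar. The control library came from C57/BL6 mice treated with sodium citrate solution and with normal blood sugar. Both were made from femurs and tibias digested with collagenase I and dispase II, strained and depleted of red cells by lysis, and the age of the mice and the number pooled are not stated in the labels. There was 1 library per group, so no test of the condition was possible, no p-value is given, and the intervals below are 95% intervals that cover counting error only.

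B cells are made in the marrow from precursors that rearrange their immunoglobulin genes, leave as immature cells and finish maturing in the spleen. Mature cells carry IgM and IgD on the surface, circulate through blood, lymph nodes and spleen, and some return to the marrow, where they sit near blood sinusoids. Their antigen receptor signals through the CD79 pair, is amplified by a coreceptor and is held back by inhibitory receptors and phosphatases, and the cells present antigen on MHC class II.

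The libraries differed in depth. Members had a median of 2219 counts and 740.5 genes in the T1D library, against 3124 counts and 1006 genes in the control library. Their summed counts were 1097260 in the T1D library and 2435720 in the control library. The other kept cells had a median of 2767 counts in the T1D library and 3663 in the control library. The lowest total of a member was 1369 counts in the T1D library and 1904 in the control library. A median of 37.7% of the counts of a T1D member, and 32.8% of those of a control member, fell on a ribosomal RNA gene of the nucleus. The libraries shared 249 kept barcodes, and 0 of these were members in both. Levels below are in CPM, the counts of all members of a library summed and scaled to a common total for each library, and they compare a gene between libraries, not genes with each other.

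The label was checked against the cells. The 9 genes of the rule chose the members, and a gene that varies with them from cell to cell is not independent of that choice, so what follows is a description with no test. The 25 genes that stood highest in members over all other kept cells in both libraries were B cell genes for the most part. They held all 5 marker genes of the rule, the antigen receptor genes Cd79a and Iglc2, and the class II genes Cd74, H2-Aa, H2-Eb1, H2-DMb2 and H2-Ob. They also held Bank1 and Rasgrp3 of receptor signalling, the receptors Ccr7, S1pr1, Btla, Gpr174 and P2ry10, and Zfp318, the factor that lets B cells splice IgD. Cd74, the class II invariant chain, had a count in 98.4% of T1D members and 97.7% of control members, against 4.78% and 15.04% of neutrophil-marked cells. Neutrophil-marked cells were kept cells outside the class with at least 20 counts of neutrophil granule genes, and a share of cells at or below theirs is read as background. That reading cannot tell free RNA from a transcript that neutrophil-marked cells make themselves, and it does not show that members lack the transcript.

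Many members also carried neutrophil transcripts. A list of 11 neutrophil genes, among them S100a8, S100a9, Ngp and Camp, took a median of 1.03% of a member's counts in the T1D library and 0.550% in the control library. Most members lay near 0, and a long tail reached beyond 15% in both libraries. Under 2% were 217 T1D members and 350 control members, at least 4% were 125 T1D members (33.8%, interval 29.0 to 38.9) and 236 control members (38.8%, interval 34.9 to 42.8), and 28 T1D and 23 control members lay between. Members with at least 4% had a median of 3661 counts in the T1D library and 3775 in the control library, and members under 2% had 1810 and 2586.5. Whether such barcodes held a B cell and a neutrophil or a B cell and free RNA was not tested. Many results are therefore given also for members under 2%, a setting added after the data were seen.

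**Figure D1:**
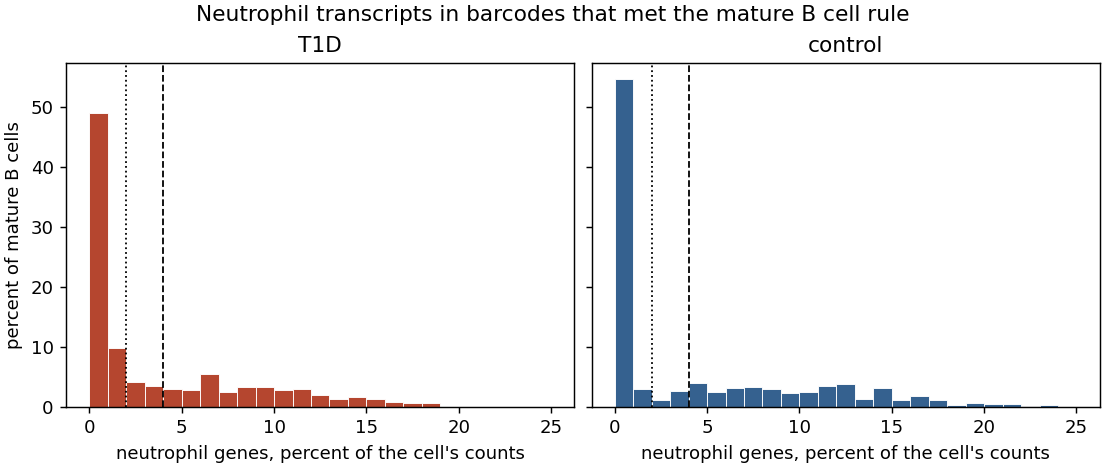
Percent of mature B cells (vertical axis) by the percent of each cell's counts that came from 11 neutrophil genes (horizontal axis, bins of 1%), T1D library on the left and control library on the right; the dotted line is at 2% and the dashed line at 4%. Most members lay under 2% in both libraries, and 33.8% of T1D and 38.8% of control members lay at 4% or above.

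Members of the T1D library met the rule with fewer of its genes. Exactly 2 of the 5 markers were counted in 215 T1D members (58.1%) and 224 control members (36.8%), 3 in 124 and 191, 4 in 28 and 151, and all 5 in 3 and 43. Ighd was counted in 89.7% of T1D and 81.6% of control members, Ms4a1 in 69.2% and 81.9%, Cd22 in 42.4% and 54.2%, Fcmr in 33.5% and 54.4%, and Fcer2a in 16.2% and 30.0%. These shares chose the members and carry the depth gap. Just inside the threshold, the members with exactly 2 markers had Cd79a or Cd79b in 58.6% of T1D and 82.1% of control cells and Cd74 in 97.7% and 94.6%. Just outside it, 368 T1D and 568 control cells had 1 marker and passed the exclusions, and of these 24.5% and 26.6% had Cd79a or Cd79b and 53.5% and 36.4% had Cd74. The neutrophil list took a median of 5.02% of counts in the T1D and 8.65% in the control cells with 1 marker, against 0.719% and 0.388% in members with 3 or more.

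Mature B cells were 2.37% of kept cells in the T1D library (370 of 15579, Clopper-Pearson interval 2.14 to 2.63) and 4.76% in the control library (609 of 12803, interval 4.39 to 5.14). The share was 2.003-fold lower in the T1D library, with an interval of 1.76 to 2.27. With every kept cell thinned to 1000 counts the share was 2.60-fold lower, and among cells that reached the control library's lowest total of 1904 counts it was 2.48-fold lower. The shares were 1.39% in the T1D library and 2.73% in the control library for members under 2% neutrophil counts. Neutrophil-marked cells were 12300 of the 15579 kept cells in the T1D library and 7928 of the 12803 in the control library. A share of kept cells also depends on how many other cells were kept, and their part in the gap was not tested.

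The gap was wider without the exclusions. It was also wider with at least 3 markers, 3.02-fold, and with Cd79a or Cd79b also counted, 3.01-fold. It was narrower in the settings below that asked for Ighd and for no count of immature genes. Without the exclusions on Vpreb3, Rag1, Jchain and Siglech, 2.66% of T1D and 8.83% of control cells had at least 2 markers, a share 3.32-fold lower in the T1D library. The exclusions took out 44 T1D cells, 10.6% of them, and 521 control cells, 46.1%. Vpreb3 removed 40 T1D and 480 control cells, Rag1 removed 0 and 108, Siglech removed 3 and 39, and Jchain removed 3 and 9. Vpreb3 also had a count in 0.350% of T1D and 11.3% of control neutrophil-marked cells, and Rag1 in 0% (a count of 0 allows up to 0.0244%) and 4.58%, and the part of such background in the removals was not tested.

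Counts of other genes of immature cells remained, at shares near those of neutrophil-marked cells for Akap12 and Cd93 and below them for Myb. Akap12, high in B cell precursors, had a count in 0.270% of T1D members and 9.69% of control members, against 0.106% and 7.38% of neutrophil-marked cells. Cd93, the marker of transitional B cells, had a count in 9.46% of T1D and 20.9% of control members, against 11.4% and 18.7% of neutrophil-marked cells. After thinning to 1000 counts Cd93 was counted in 3.24% of T1D and 6.57% of control members, against 4.14% and 6.75% of neutrophil-marked cells. The interval of Akap12 in control members, 7.46 to 12.3, reached into that of neutrophil-marked cells, 6.81 to 7.98. Myb, a factor of early progenitors, had a count in 3.78% and 11.99% of members, below its 13.1% and 21.6% in neutrophil-marked cells. Among members under 2% neutrophil counts Cd93 was counted in 8.29% of T1D and 21.4% of control cells. Myb was counted there in 3.69% and 13.4%, and Akap12 in 0.461% and 9.43%. Whether the Cd93 and Myb counts of members came from immature B cells or from background was not tested. When members had also to carry Ighd and no count of Akap12, Myb, Cd93, Il7r, Vpreb1, Igll1, Dntt or Rag2, 287 T1D and 326 control cells were left. Their share was 1.84% in the T1D library and 2.55% in the control library, 1.38-fold lower with an interval of 1.18 to 1.62. With under 2% neutrophil counts as well, 171 T1D cells (1.10%) and 189 control cells (1.48%) were left, called the strictest members below, and their share was 1.34-fold lower, interval 1.10 to 1.65. Both of these settings were added after the data were seen. Ighd was counted in 89.7% of T1D and 81.6% of control members, so asking for it took out a larger share of control members. Cd93 and Myb were also counted in larger shares of control members. The part of these conditions in the narrower gap was not tested.

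**Figure D2:**
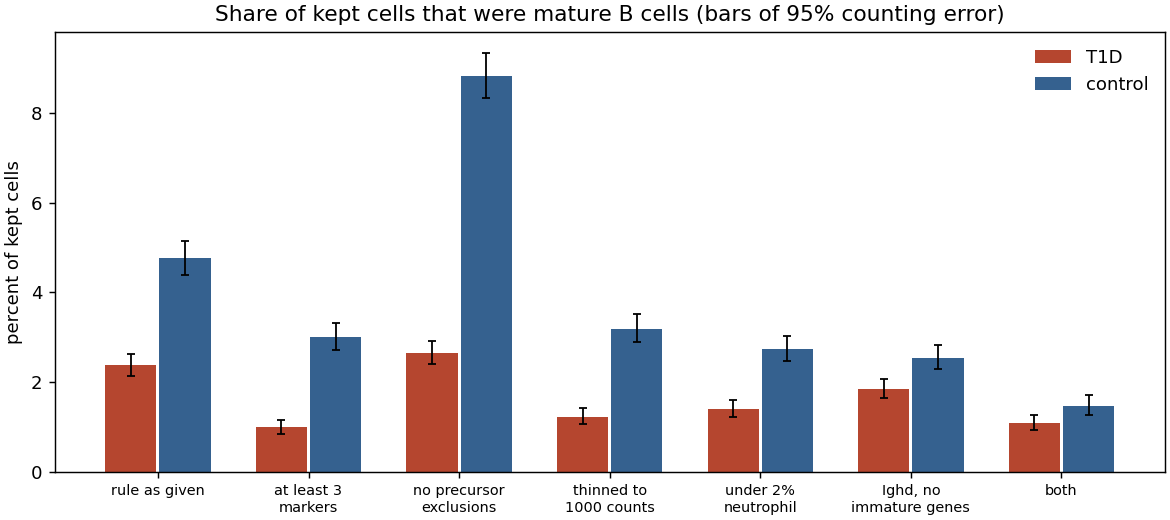
Mature B cells as a percent of kept cells (vertical axis) in the T1D library (left bar of each pair) and the control library (right bar) under 7 ways of choosing them, with 95% Clopper-Pearson intervals that cover counting error only. The T1D bar is the lower of each pair, and the pair is closest, 1.10% and 1.48%, for members with Ighd, no immature genes and under 2% neutrophil counts.

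Gene levels were compared by a rule of size. A gene passed where its log2 ratio of CPM, T1D over control with 5 CPM added, was at least 1 in size, its higher level was at least 50 CPM and its counting interval excluded a ratio of 1. Of 2850 genes with 50 CPM in either library, 16 were higher in T1D members (0.561%) and 83 were lower (2.91%), 99 in all (3.47%). At these shares a short list can hold no gene past the rule without differing from all genes. Among members under 2% neutrophil counts 47 were higher (1.54%) and 177 lower (5.79%) of 3059 genes, and among the strictest members 98 were higher (3.35%) and 185 lower (6.33%) of 2924. The balance of higher and lower genes moved with the scaling. The median log2 ratio over 7684 genes with at least 10 CPM was -0.11, and once ribosomal RNA counts were dropped it was -0.02 and 40% of the genes that passed were higher, against 16.2% as first counted. Called lower in all members, under 2%, with Ighd and no immature genes, and in the strictest members were 28 genes, and called higher in all 4 were 5.

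The antigen receptor itself was the first group. Of 11 genes of the receptor and its coreceptor, 2 were lower in T1D members, 0 were higher, and the median log2 ratio was -0.44. Cd79a, the signalling subunit without which the receptor does not reach the surface, stood at 167 CPM in T1D members and 359 CPM in control members, 2.15-fold lower with an interval of 1.83 to 2.54. The gap was as large in members under 2% neutrophil counts, 223 and 456 CPM, and in the strictest members, 248 and 571 CPM. With ribosomal RNA counts dropped its log2 ratio was -0.98, after free RNA subtraction -0.92 and among members that also had to carry Cd79a or Cd79b -0.50, and it no longer passed in these 3 settings. Cd79a had a count in 35.7% of T1D and 66.0% of control members, and in 16.5% and 31.5% once each cell was thinned to 1000 counts, against 0.569% and 8.03% of neutrophil-marked cells.

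Its partner Cd79b stood at 275 CPM in T1D members and 523 CPM in control members and did not pass, with a log2 ratio of -0.92. Cd81, a tetraspanin of the coreceptor, stood at 53.8 and 53.0 CPM. The complement receptor Cr2 (CD21), the coreceptor's ligand-binding chain, went the other way. It stood at 80.2 CPM in T1D members and 39.8 CPM in control members and did not pass, and at 125 and 50.3 CPM among members under 2% neutrophil counts, where it was higher. Among the strictest members it stood at 143 and 83.5 CPM and did not pass. Cr2 is also a marker of marginal zone B cells. Of a marginal zone list 6 genes were measured in all members, 0 passed and the median was -0.26. Among members under 2% neutrophil counts 7 were measured, Cr2 alone passed and the median was -0.03. Among the strictest members 0 of 7 passed and the median was -0.31. Whether the members held marginal zone B cells was not tested.

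IgM and IgD transcripts were both abundant. Ighm stood at 2074 CPM in T1D members and 2571 CPM in control members, and Ighd at 924 and 692 CPM. The T1D members had 0.446 counts of Ighd per count of Ighm, and the control members 0.269. Ighd outnumbered Ighm in 81 of 366 T1D members with either transcript (22.1%, interval 17.98 to 26.74) and in 71 of 606 control members (11.7%, interval 9.26 to 14.5). A high ratio of IgD to IgM is the pattern of follicular B cells, and Ighd was itself a gene of the rule. The gap narrowed among the strictest members, to 21.6% of T1D (interval 15.7 to 28.6) and 14.3% of control cells (interval 9.63 to 20.1). These intervals overlap. The strictest members had to carry Ighd, and the part of that condition in the narrowing was not tested. Members under 2% neutrophil counts did not have to carry it. There the shares were 20.9% of T1D (interval 15.7 to 27.0) and 9.14% of control cells (interval 6.34 to 12.7). The intervals of these members do not overlap.

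Light chain genes gave 1 gene past the rule. Igkc, the kappa constant region, stood at 975 CPM in T1D members and 1705 CPM in control members, and Iglc1, the lambda 1 constant region, at 32.8 and 119 CPM, 3.63-fold lower with an interval of 2.56 to 5.28. Iglc1 counts came from 20 T1D and 92 control members, and the gene no longer passed among the strictest members, at 81.6 and 161 CPM. The other lambda genes did not pass, Iglc2 at 185 and 236 CPM and Iglc3 at 85.7 and 118 CPM, and lambda constant regions are near-identical copies that counting can split. Cells with more than 1 light chain count and unequal kappa and lambda counts were compared, here and in the sets that follow. Of these, 36 of 233 T1D members (15.5%, interval 11.1 to 20.7) and 50 of 514 control members (9.73%, interval 7.31 to 12.6) had more lambda than kappa counts. Among the strictest members these were 18.3% in the T1D library and 7.56% in the control library, with intervals of 11.9 to 26.4 and 4.09 to 12.6. The intervals overlap in both of these comparisons. They do not overlap among members with Ighd and no immature genes, a set added after the data were seen. There 31 of 184 T1D members (16.8%, interval 11.7 to 23.1) and 16 of 280 control members (5.71%, interval 3.30 to 9.11) had more lambda.

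Class-switched members were rare. Of members with more than 1 heavy chain count, switched constant regions outnumbered Ighm and Ighd in 6 of 360 T1D cells (1.67%) and 3 of 600 control cells (0.5%). The intervals, 0.614 to 3.59 and 0.103 to 1.45, overlap. Ighg1 had 24 counts in 10 T1D members and 0 in control members. In the other kept cells Ighg1 stood at 145 CPM in the T1D library and 0.0365 CPM in the control library, and the part of that background in the members' counts was not tested. Heavy chain variable segments were counted in 23.8% of T1D members and 37.1% of control members, and kappa variable segments in 11.6% and 28.9%, shares that carry the depth gap. In CPM, which scales for depth, heavy chain segments stood at 107 and 128 and kappa segments at 44.7 and 116. Among the strictest members these were 186 and 252 CPM and 92.8 and 178 CPM.

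The genes that hold the receptor back had members past the rule in both directions. Of 11 such genes, 9 had at least 10 CPM, 1 was higher, 1 was lower and the median was -0.16, with -0.42 among members under 2% neutrophil counts and -0.45 among the strictest. Ptpn22, a tyrosine phosphatase that limits antigen receptor signalling and whose variants are tied to autoimmune diabetes in people, stood at 166 CPM in T1D members and 71.0 CPM in control members. It was 2.33-fold higher, with an interval of 1.89 to 2.89, and it passed in every one of 17 settings run. It stood at 215 and 99.0 CPM among members under 2% neutrophil counts and at 253 and 115 CPM among the strictest members. In all other kept cells it stood at 44.6 CPM in the T1D library and 41.9 CPM in the control library and did not pass. Ptpn22 had a count in 32.7% of T1D and 17.9% of control members, against 8.72% and 10.4% of neutrophil-marked cells.

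Btla, an inhibitory receptor for the ligand HVEM, stood at 210.5 CPM in T1D members and 115 CPM in control members and fell just short, at 1.83-fold. It was higher among members under 2% neutrophil counts, at 304 and 148 CPM, and among the strictest members, at 385 and 187 CPM. Ptpn6, the phosphatase SHP-1 that many inhibitory receptors recruit, stood at 128 CPM in T1D members and 290 CPM in control members, 2.28-fold lower with an interval of 1.90 to 2.75. It kept its call in 16 of 17 settings and did not pass with at least 3 markers. In all other kept cells Ptpn6 stood at 127 and 185 CPM. It was counted in 22.7% of T1D and 55.7% of control members, against 27.3% and 42.1% of neutrophil-marked cells, so the T1D share is not above background.

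Cd72, an inhibitory receptor of B cells and a ligand of CD100, had 5 counts in 5 T1D members and was counted in 80 control members. It stood at 4.56 CPM in T1D members and 42.7 CPM in control members, under the 50 CPM minimum, and was lower among members under 2% (9.61 and 54.2 CPM) and the strictest members (8.44 and 50.1 CPM). Its share of cells was 1.35% in T1D and 13.1% in control members, against 0.106% and 2.43% of neutrophil-marked cells. The other receptors of the group did not pass. Siglecg, a sialic acid receptor that dampens the antigen receptor, stood at 69.3 and 117 CPM, Fcgr2b, the inhibitory IgG receptor, at 68.4 and 77.2 CPM, and Fcrl1 at 30.1 and 43.9 CPM.

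Fcrla, an intracellular Fc receptor-like protein of B cells, was among the 10 genes lower in every one of 17 settings. It stood at 42.8 CPM in T1D members and 147 CPM in control members, 3.44-fold lower with an interval of 2.53 to 4.77. It was counted in 9.46% of T1D and 36.9% of control members, against 0.211% and 6.57% of neutrophil-marked cells. Among the strictest members it stood at 73.2 and 226 CPM.

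The kinases and adaptors downstream of the receptor showed no gene past the rule. Of 17 genes, 0 were higher and 0 lower, beside 0.561% and 2.91% of all genes tested, and the median was -0.13, with 0.02 among members under 2% neutrophil counts. The kinases Syk, Lyn and Btk stood at 278, 197 and 87.5 CPM in T1D members and at 342, 240 and 97.3 CPM in control members. The adaptor Blnk stood at 75.6 and 80.9 CPM. Bank1, a scaffold that links Lyn to the IP3 receptor, had the largest positive difference of the group, at 330 CPM in T1D members and 215 CPM in control members, and did not pass. Its share of cells was 33.8% in T1D and 22.8% in control members after thinning.

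The factors that hold B cell identity also showed no gene past the rule. Of 19 such factors, 0 were higher or lower, beside 3.47% of all genes tested. Their median was -0.11, the same as the median of all genes. Pax5, which fixes B cell fate, stood at 317 CPM in T1D members and 349 CPM in control members, and after thinning had a count in 31.9% of members of both libraries. Ebf1, which opens the B cell programme, stood at 184 and 172 CPM, Foxp1, needed for follicular B cells, at 371 and 364 CPM, Ets1 at 450 and 397 CPM, and Ikzf1 (Ikaros) at 267 and 254 CPM. Spib, an ETS factor of receptor signalling, was nearest to the rule at 62.0 and 129 CPM with a log2 ratio of -0.995, just short of it. In the other kept cells, where B cell precursors sit, 7 of the 19 were lower in the T1D library, Pax5 among them at 5.46 and 74.9 CPM, and the median was -1.07. The difference between members and other cells was not tested.

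**Figure D3:**
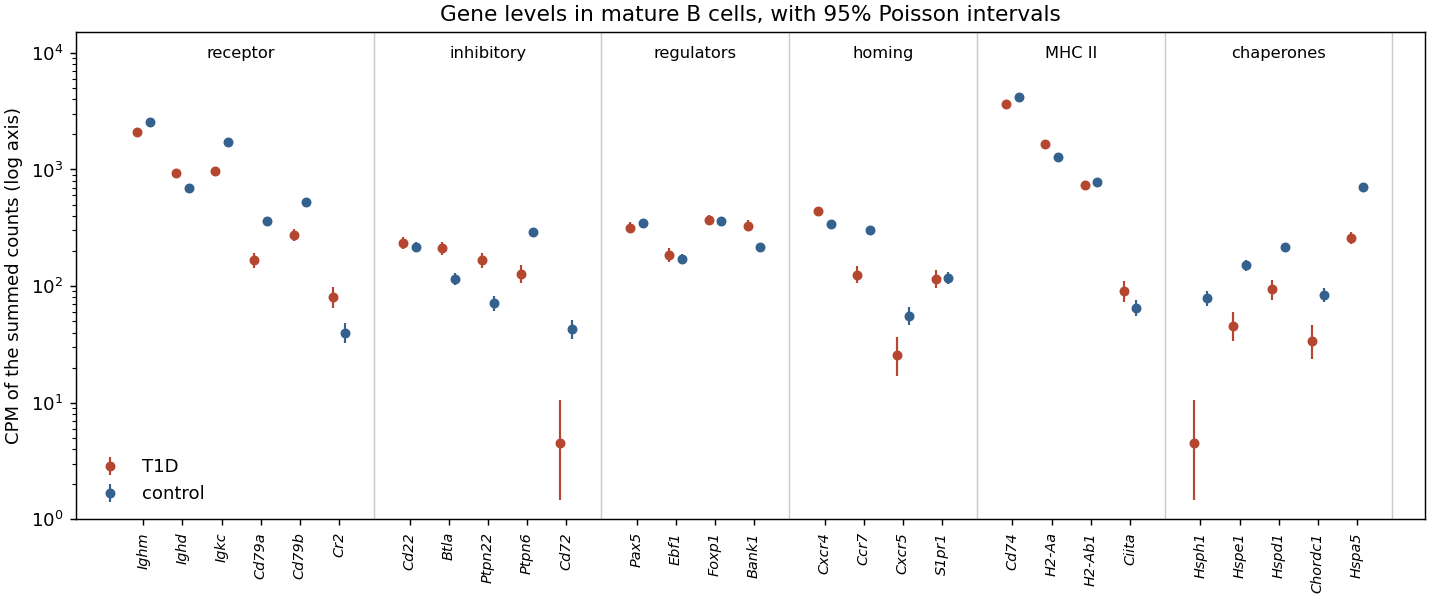
CPM of the summed counts of mature B cells (vertical axis, log scale) for 28 genes grouped by role, with the T1D library as the left point and the control library as the right point of each gene and bars of 95% Poisson intervals that cover counting error only. The points of Pax5, Ebf1 and Foxp1 nearly coincide, those of Cd79a, Ptpn6 and Ccr7 are lower in the T1D library, Ptpn22 is higher, and Hsph1 shows the widest gap, 4.56 and 78.8 CPM.

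The receptors that guide recirculation differed in 1 gene of 14, beside 3.47% of all genes tested. Ccr7, the receptor that draws B cells to the T cell zone of lymph nodes, stood at 126 CPM in T1D members and 304 CPM in control members, 2.42-fold lower with an interval of 2.01 to 2.92. It had a count in 25.1% of T1D and 51.1% of control members, and in 12.97% and 25.62% after thinning, against 0.927% and 3.59% of neutrophil-marked cells. It was lower among the strictest members, at 217 and 480 CPM, and did not pass among members under 2% neutrophil counts, at 179 and 354 CPM. Its relative Cxcr5, which draws B cells into follicles, stood at 25.5 and 55.4 CPM with a log2 ratio of -0.99 and did not pass. Cxcr5 was lower among members with Ighd and no immature genes and did not pass among the strictest members.

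The remaining homing genes did not pass in all members. Cxcr4, which holds cells in the marrow, stood at 439 CPM in T1D members and 342 CPM in control members, and S1pr1, which lets them leave tissues for blood and lymph, at 115 and 117 CPM. Klf2, the factor that drives S1pr1, stood at 338 and 485 CPM, and the integrin Itgb7 at 59.2 and 101 CPM. Itgb7 was lower among the strictest members, at 50.6 and 141 CPM. The list's median was -0.13 in all members and -0.41 in the strictest members, and Cxcr4 and Klf2 are expressed by other marrow cells too.

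Genes of immature B cells came next. Of 8 genes of transitional and immature B cells, 3 were lower in T1D members, Cd93, Myb and Ly6d, and the median was -0.82. Members with Ighd and no immature genes leave out cells with Cd93 or Myb, and over the 6 genes measured there the median was -0.66. Over the 6 measured among the strictest members it was -0.86. After thinning, Cd93 and Myb were counted in smaller shares of members than of neutrophil-marked cells, and the source of these counts was not tested. Cd93 passed in 8 of 17 settings, not with TMM or DESeq2 scaling. Ly6d, a surface protein of B lineage cells, stood at 204 CPM in T1D members and 434 CPM in control members, 2.12-fold lower with an interval of 1.84 to 2.46. It passed in 9 of 17 settings and in neither the members under 2% nor the strictest members. Cd24a, which falls as B cells mature and which neutrophils also carry, stood at 394 and 599 CPM in all members and at 203 and 501 CPM in the strictest members, where it was lower. Follicular genes showed none past the rule, with a median of -0.03 (0.05 with TMM scaling) over 8 genes that hold Ighd and Fcer2a of the rule. Zfp318 stood at 210 CPM in T1D members and 192 CPM in control members, and Cd55 at 268 CPM in both.

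Ccnd2, the cyclin that carries B cells into the cell cycle after receptor signals, was lower in every one of 17 settings. It stood at 26.4 CPM in T1D members and 143 CPM in control members, 5.42-fold lower with an interval of 3.71 to 8.22, and its counts came from 20 T1D and 117 control members. In all other kept cells it stood at 62.7 and 65.5 CPM and did not pass. The cell cycle list as a whole had 0 of 15 genes past the rule and a median of -0.25, with 0.06 where at least 3 markers were asked for. Survival genes gave none of 13 past the rule, beside 3.47% of all genes tested. Bcl2, which keeps mature lymphocytes alive, stood at 68.4 CPM in T1D members and 36.5 CPM in control members, and Tnfrsf13c, the BAFF receptor, at 39.2 and 77.6 CPM.

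Antigen presentation genes of MHC class II showed no gene past the rule. Of 10 genes 0 passed, beside 3.47% of all genes tested. The median was -0.10, with 0.10 among members under 2% neutrophil counts, -0.36 with Ighd and no immature genes and -0.24 among the strictest members. In the strictest members 0 passed, 8 of 10 had the lower value in T1D members, and the 10 genes summed to 12332 CPM in T1D members and 14475 CPM in control members. Cd74 stood at 3626 CPM in T1D members and 4220 CPM in control members, the class II chain H2-Aa at 1650 and 1276 CPM, H2-Ab1 at 742 and 787 CPM, and H2-Eb1 at 591 and 596 CPM. Ciita, the master regulator of class II, stood at 90.2 and 65.3 CPM. H2-Ob, a chain of the H2-O protein that restrains peptide loading in B cells, had the lowest log2 ratio, -0.71, at 102 and 170 CPM. In the other kept cells 4 of the 8 measured were lower in the T1D library and the median was -1.35. For MHC class I, 0 of 9 passed, 8 of 9 had the lower value in T1D members and the median was -0.30, with B2m, the shared light chain, at 560 and 954 CPM.

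Chaperones of the heat shock response had a median of -0.94. Of 14 genes 12 had at least 10 CPM, 11 of these had the lower value in T1D members and 5 passed, all of them lower. These were Hsph1, Hspe1, Hspd1, Chordc1 and Hsp90aa1. Among members under 2% neutrophil counts 7 passed and the median was -1.07, and among the strictest members 4 passed and the median was -0.90. In the other kept cells the median was -0.57 and 2 passed, Hsph1 and Hspe1. With 1 library per group, the handling of a library and its condition cannot be told apart. The windows around the starts of 3 of these genes are shown because each holds the binding motif of heat shock factor. They run from 250 bases before to 50 bases after the start of the gene, are taken from RefSeq on build GRCm38.p6 and read 5′ to 3′ on the gene's strand, with the motif in capitals. The expression files use build mm9, so these coordinates belong to GRCm38.p6 alone. Hsph1 lies on the minus strand at chr5:149636287-149636586, Hspe1 on the plus strand at chr1:55087898-55088197 and Chordc1 on the plus strand at chr9:18292017-18292316.
Hsph1: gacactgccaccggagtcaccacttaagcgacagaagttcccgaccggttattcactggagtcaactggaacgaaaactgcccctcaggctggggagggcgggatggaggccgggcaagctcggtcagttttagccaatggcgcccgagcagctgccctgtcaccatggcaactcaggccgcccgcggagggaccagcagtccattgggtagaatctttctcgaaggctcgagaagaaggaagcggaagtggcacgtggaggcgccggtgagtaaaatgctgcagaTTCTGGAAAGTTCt
Hspe1: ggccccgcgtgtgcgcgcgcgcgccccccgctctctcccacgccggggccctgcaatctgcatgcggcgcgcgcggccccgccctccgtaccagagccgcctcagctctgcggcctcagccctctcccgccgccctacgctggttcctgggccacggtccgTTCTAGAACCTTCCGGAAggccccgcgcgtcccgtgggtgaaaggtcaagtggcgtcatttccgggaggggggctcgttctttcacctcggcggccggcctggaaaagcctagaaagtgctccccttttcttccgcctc
Chordc1: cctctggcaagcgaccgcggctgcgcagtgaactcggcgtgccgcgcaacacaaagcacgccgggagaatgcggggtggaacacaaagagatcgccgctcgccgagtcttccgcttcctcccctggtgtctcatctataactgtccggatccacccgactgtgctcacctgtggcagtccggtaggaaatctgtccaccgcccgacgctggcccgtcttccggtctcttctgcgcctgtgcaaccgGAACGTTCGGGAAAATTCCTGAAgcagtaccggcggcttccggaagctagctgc

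The motif searched, on both strands, was GAA, any 2 bases, TTC, any 2 bases and GAA, or its reverse complement TTC, any 2 bases, GAA, any 2 bases and TTC. Hsph1 had 1 match in this window, the first of its 2 windows, Hspe1 had 2 matches that overlap and Chordc1 had 3 that overlap. Of all 32851 windows 198 (0.603%) held it, and of all 27025 gene symbols 179 (0.662%) had a window that held it. Of the 10 heat shock genes with a window 4 held it, Hspd1 being the other. A match is a description, not a site or a cause, and the window of a gene without a match only lacks these letters.

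Hsph1, an HSP110 chaperone, stood at 4.56 CPM in T1D members and 78.8 CPM in control members, 17.3-fold lower with an interval of 7.29 to 53.9. It had 5 counts in 4 T1D members and 192 counts in 120 control members. Its share of cells was 1.08% in T1D and 19.7% in control members, against 1.34% and 6.31% of neutrophil-marked cells, so the T1D share is read as background. In all other kept cells Hsph1 stood at 9.71 and 59.1 CPM and was also lower. It passed in 16 of 17 settings and not after free RNA subtraction.

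Hspe1, the mitochondrial chaperonin HSP10, stood at 45.6 CPM in T1D members and 151 CPM in control members, 3.32-fold lower with an interval of 2.46 to 4.55, and was lower in every one of 17 settings. Its partner Hspd1, HSP60, stood at 93.9 and 215 CPM, 2.29-fold lower, and Chordc1, a cochaperone of HSP90, at 33.7 and 84.6 CPM, 2.51-fold lower. Hsp90aa1, the inducible HSP90, stood at 394 and 870 CPM, 2.21-fold lower. Hspd1 and Hsp90aa1 did not pass in the strictest members, where Hspd1 stood at 92.9 and 178 CPM and Hsp90aa1 at 428 and 801 CPM. Hspa8, the constitutive HSC70, stood at 454 and 880 CPM and did not pass, nor did Bag3, a cochaperone and the list's exception in direction, at 12.8 and 6.57 CPM.

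Chaperones of the endoplasmic reticulum had lower values in T1D members throughout the list. Of 15 measured genes of the unfolded protein response all 15 had the lower value in T1D members, 3 passed and the median was -0.62. Hspa5 (BiP), the main chaperone of the reticulum, stood at 261 CPM in T1D members and 713 CPM in control members, 2.74-fold lower with an interval of 2.41 to 3.11. Calr (calreticulin) stood at 104 and 233 CPM and Manf, a chaperone that the response secretes, at 49.2 and 108 CPM, and they passed in 10 and 5 of 17 settings. Among members under 2% neutrophil counts 2 of 16 passed and the median was -0.72. Among the strictest members 0 passed, 14 of 16 had the lower value, the median was -0.27, and Hspa5 stood at 290 and 568 CPM. Of neutrophil-marked cells 35.1% in the T1D library and 58.1% in the control library had a count of Hspa5, against 38.6% and 65.5% of members.

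Genes induced by interferon had a median of -0.79, with 17 of 19 measured genes at the lower value in T1D members and 2 past the rule. Ifi27l2a, an interferon-induced mitochondrial protein, stood at 5.47 CPM in T1D members and 121 CPM in control members, 22.1-fold lower with an interval of 10.02 to 60.64, and was lower in every one of 17 settings. It was counted in 1.62% of T1D and 23.5% of control members, against 1.63% and 13.7% of neutrophil-marked cells, so the T1D share is read as background. Ifitm3, which blocks viral entry, stood at 161 and 341 CPM and passed in 11 of 17 settings. The sensors and effectors Isg15, Ifit1, Mx1 and Oas1a were all under 12 CPM in both libraries. Ly6a (Sca-1), which interferon raises in lymphocytes, stood at 122 and 83.8 CPM. The same list had a median of -0.75 in the other kept cells.

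Immediate early genes, which respond to receptor signals and to tissue handling alike, had a median of -0.48, with 3 of 21 measured genes lower and 0 higher. Fosb stood at 168 CPM in T1D members and 425 CPM in control members, 2.54-fold lower with an interval of 2.17 to 2.98, and was lower in every one of 17 settings. Atf3 stood at 33.7 and 117 CPM, and Egr1 at 195 and 458 CPM. Egr1 did not pass among members under 2% neutrophil counts, at 135 and 241 CPM. Klf4, a factor linked to quiescence in B cells, was 3.33-fold lower with an interval of 2.59 to 4.33, at 63.8 CPM in T1D members and 212 CPM in control members. The activation markers Cd69, at 183 and 347 CPM, and Cd83, at 149 and 154 CPM, did not pass. Klf4, Fosb and Atf3 were also lower in the other kept cells.

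Housekeeping lists leaned to lower values together. Of 79 measured ribosomal protein genes 78 had the lower value in T1D members, with a median of -0.55, and 5 passed, among them Rpl10 at 222 CPM in T1D members and 454 CPM in control members. All 7 measured of 13 mitochondrially encoded protein genes had the lower value, with a median of -0.72, and mt-Nd2, a subunit of complex I, passed at 327 and 677 CPM. This list summed to only 3222 CPM in T1D members and 5212 CPM in control members. All mitochondrially encoded genes together went the other way, at a median of 5.86% of a T1D member's counts and 5.17% of a control member's. The same lists had medians of -0.52 and -1.13 in the other kept cells. Rpl10 and mt-Nd2 did not pass with ribosomal RNA counts dropped. The part of ribosomal RNA content and depth in these medians was not tested.

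Genes that respond to glucocorticoids gave no common direction, with a median of -0.17 in all members and 0.24 in the strictest members, but 2 of 11 were higher. Fkbp5, a cochaperone that the glucocorticoid receptor induces, stood at 108 CPM in T1D members and 27.1 CPM in control members, 3.97-fold higher with an interval of 2.91 to 5.45, and was higher in every one of 17 settings. Among the strictest members it stood at 124 and 18.6 CPM. It had a count in 22.7% of T1D and 7.55% of control members, against 18.4% and 10.8% of neutrophil-marked cells, and in the other kept cells it was higher too, at 81.4 and 34.5 CPM. Cebpb, a factor of myeloid cells, stood at 170 and 62.0 CPM, 2.73-fold higher, and at 227 and 72.3 CPM in the other kept cells. After free RNA subtraction the log2 ratio of Cebpb was 0.44 and it did not pass. The classical target Tsc22d3 (GILZ) stood at 265 and 344 CPM, Per1 at 97.5 and 129 CPM, and the receptor Nr3c1 at 143 and 161 CPM, and none of them passed.

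Genes of insulin and glucose sensing had a median of 0.23 over 14 measured genes, with none past the rule in all members. Insr, the insulin receptor, stood at 47.4 CPM in T1D members and 22.6 CPM in control members, under the 50 CPM minimum. It was higher among members under 2% neutrophil counts, at 51.9 and 23.2 CPM, and among the strictest members, at 64.7 and 27.8 CPM. Txnip, which glucose induces and which limits glucose uptake, stood at 244 and 158 CPM, a ratio of 1.54, and Pik3ip1, a brake on PI3 kinase, at 43.8 and 25.5 CPM. Of 15 glycolysis genes none passed in all members and the median was -0.08. Among members under 2% neutrophil counts the median was -0.29 and Tpi1, a glycolytic isomerase, was lower, at 53.8 and 122 CPM. Among the strictest members the median was 0.0060 and Slc2a3, a glucose transporter, was higher, at 78.8 and 33.4 CPM.

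**Figure D4:**
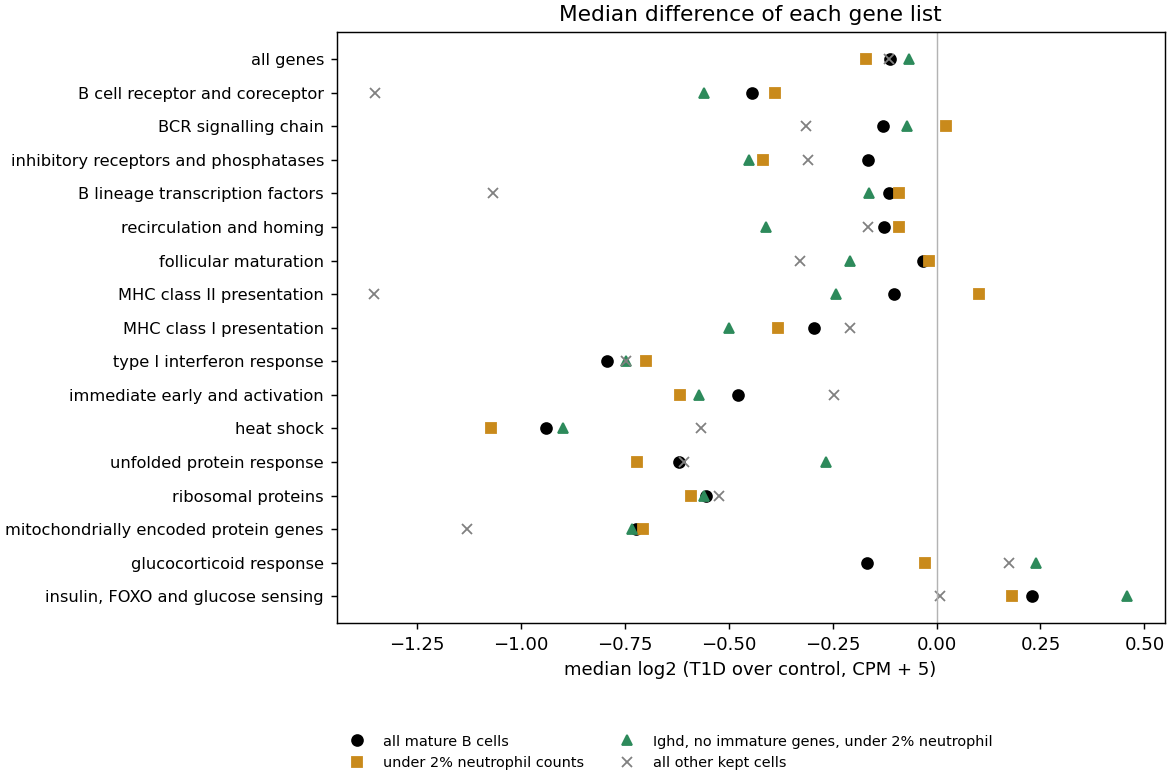
Median log2 ratio of CPM, T1D over control with 5 CPM added (horizontal axis), for all genes and 16 gene lists, in all mature B cells (circles), members under 2% neutrophil counts (squares), members with Ighd, no immature genes and under 2% neutrophil counts (triangles) and all other kept cells (crosses). B lineage factors and MHC class II lie near the all-genes median of -0.11 in all mature B cells (circles) and at -1.07 and -1.35 in other cells, and the heat shock list lies at -0.94 in members.

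The genes highest in T1D members were in large part not B cell genes. Of the 16 higher genes 10 were also higher in all other kept cells (62.5% of the 16 and 40% of the 25 higher there), and of the 83 lower genes 23 were (27.7% of the 83 and 33.3% of the 69 lower there). Asprv1, a protease of mature neutrophils, stood at 155 CPM in T1D members and 22.2 CPM in control members, and at 194 and 26.6 CPM in the other kept cells. Olfm4, a neutrophil granule protein, stood at 186 and 61.6 CPM in all members and at 26.9 and 3.87 CPM in members under 2% neutrophil counts, where it did not pass. Prok2, Stfa2l1, Pla2g7 and Vcan, genes of myeloid cells, were higher in members and in the other cells alike. Prss34, a basophil protease, rested on 1 T1D member that held 63 of its 64 counts.

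The neutrophil list itself summed to 51309 CPM in T1D members and 52554 CPM in control members, with 0 of 11 genes past the rule. Among members under 2% it summed to 5658 and 2514 CPM, with 5 of 11 higher, and among the strictest members to 6055 and 3230 CPM. The 4 primary granule genes Mpo, Elane, Prtn3 and Ctsg summed to 599 and 767 CPM in all members and to 571 and 111 CPM in the strictest members, where 3 were higher. The monocyte list summed to 1701 and 1688 CPM, the erythroid list to 951 and 957 CPM with 1 of its genes lower, the plasma cell list to 275 and 253 CPM and the plasmacytoid dendritic cell list to 330 and 591 CPM, most of the last being Ly6d. In the strictest members the erythroid list summed to 627 CPM in the T1D library and 1875 CPM in the control library, with Hba-a1, Hba-a2, Hbb-bs and Car2 lower. T cell and NK cell lists summed to 31.9 and 72.7 CPM and to 35.5 and 57.5 CPM. The part of these cells in the results was not tested. Cd79a, Ptpn22, Btla, Fcrla and Cd72 each had a lower level in neutrophil-marked cells than in members of the same library. Ptpn6, Hsph1 and Ifi27l2a were counted in no larger a share of T1D members than of T1D neutrophil-marked cells. Neutrophil-marked cells were chosen from outside the members, so a lower level of a B cell gene there cannot tell the source of the members' counts.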

How the data were processed

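Bone marrow cells of 1 T1D and 1 control library were profiled with the Singleron GEXSCOPE kit on a microfluidic chip, per the labels. The authors deposited whole-number counts per gene and barcode. The submitters' processing notes name bcl2fastq 2.19, featureCounts and build mm9, while the aligner, the annotation and any merging of reads by molecular identifier are steps not given in the sources used here. Counts may thus hold amplification copies. Barcodes with at least 200 genes and at most 20% mitochondrial counts were kept. Doublets were not called or removed, and no clusters were made.

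Member counts were summed per library and scaled to CPM over all genes. The size rule asked for an absolute log2 ratio of at least 1 (5 CPM added), 50 CPM in the higher library and an exact conditional binomial 95% interval of the ratio that excluded 1. List medians took genes with at least 10 CPM in either library. Shares have Clopper-Pearson intervals, and share ratios log-normal ones.

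The members and lists were chosen with earlier results of these data known. Named genes are those of the lists, the 15 highest and 15 lowest past the size rule without variable segments, and the 25 that most marked members. Scaling by TMM (edgeR 4.0.16) and DESeq2 1.42.0 size factors, other filters and free RNA subtraction were alternatives. Python 3.11.15, numpy 2.4.6, scipy 1.17.1, pandas 2.3.3, matplotlib 3.10.9 and R 4.3.3 were used. A few genes of the lists are not reported here.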

Additional observations from a re-analysis of the deposited data

How the results depend on the processing

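The log2 ratio of the share of mature B cells, T1D over control, was -1.002, and -1.60 with at least 3 markers, -1.38 after thinning, -1.31 among cells above the common lowest total, -1.73 with no exclusions and -1.59 with Cd79a or Cd79b also counted. It was -0.47 with Ighd and no immature genes and -0.43 with under 2% neutrophil counts as well. It stayed below 0 in all of these, and the cause of the differences was not tested. Against 16 genes higher, 27 passed with TMM scaling, 26 with DESeq2 scaling, 52 with ribosomal RNA left out, 10 with 20 CPM added, 35 with at least 3 markers, 25 with Cd79a or Cd79b also counted, 50 after thinning, 25 after free RNA subtraction, 25 with at most 10% mitochondrial counts, 47 under 2% neutrophil counts, 29 with Ighd and no immature genes, 98 with both, 101 with no minimum CPM and 7 with at least 100 CPM. Against 83 lower, these were 55 with TMM scaling, 32 with 20 CPM added, 128 with at least 3 markers, 138 after thinning, 177 under 2% neutrophil counts, 185 with both, 314 with no minimum CPM and 44 with at least 100 CPM. Of the 83 lower genes 78 kept their sign in every one of 17 settings and 10 passed in all, and of the 16 higher genes 11 and 2.

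Some values changed sign. Pla2g7 stood at -0.62 and Prok2 at -0.95 on the log2 scale after free RNA subtraction, Qsox1 at -0.17 under 2% neutrophil counts, and Prss34 at -0.19 with at least 3 markers and -0.46 with Ighd and no immature genes. The plasmacytoid list's median was 0.078 after free RNA subtraction. The NK cell list's was 0.27 after thinning, 0.69 with Ighd and no immature genes and 0.068 with both. The primary granule list's was 0.32 as a mean over cells, 0.011 after thinning, 0.85 with totals at most 3 times the median, 2.20 with Ighd and no immature genes and 1.92 with both. The basophil list's was -0.19 with at least 3 markers, -0.45 with Ighd and no immature genes and -0.46 with both. The cause was not tested. Settings by neutrophil counts and immature genes were added after the data were seen. No paired analysis was possible because each group had 1 library. Leaving out a replicate was not possible for the same reason. Free RNA subtraction took 65.3% of the T1D and 65.7% of the control level of neutrophil granule genes as free RNA. Counting intervals do not cover differences between animals, preparation or chips, and at 1 to 3 counts a ratio has no meaning beyond its interval.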
